A study of Mus musculus with 8 samples.

Results

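The genes described here encode splicing factors and proteins of the small nuclear ribonucleoproteins (snRNPs), the particles that make up the spliceosome. They were chosen by symbol: every mouse gene in the deposited tables whose symbol starts with Srsf, Hnrnp, Sf3a, Sf3b, Snrp, U2af or Prpf and goes on with a letter or digit, without symbols marked as pseudogenes, provided that 4 or more of the 8 libraries reached a value of 10. The symbol matched 68 of 23318 listed genes and 66 of these met the minimum, among 12906 genes of the whole table that did so. Within this rule the measured values entered only through the minimum, and the comparison between the fractions was not part of it. The rule itself was set with earlier results of these data known. The 2 genes left out were Srsf12, with values of 0 to 9.96 in CD24Neg and 0 to 2.11 in CD24Mid, and Snrpert, a processed pseudogene listed at 7.88e-05 or less in every library. The member nearest above the minimum was Prpf40b, whose lowest value was 28.7. Genes spelled Snrnp, such as those of the U1 and U5 particle proteins, fall outside the rule and are taken up among the other genes of the machinery.

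RNA came from mouse small intestinal epithelium, sorted by flow cytometry on the surface glycoprotein CD24 after removal of CD45 positive leukocytes and of cells that bind the lectin Ulex europaeus agglutinin I. There were 4 libraries of CD24Neg cells (title numbers 2, 4, 6 and 8) and 4 libraries of CD24Mid cells (title numbers 1, 3, 5 and 7). Both fractions share the depletion of CD45 and lectin-positive cells, and no genotype, strain, age or treatment is given in the sources used here. The 4 libraries of a fraction are described as biological replicates, and whether a CD24Neg and a CD24Mid library came from the same animals is not stated. Values below are the deposited normalised expression values per gene, listed in the order of title numbers, as mean ± SD with n = 4 libraries per fraction. Fold changes are CD24Neg minus CD24Mid on the scale of log2(value + 0.5), and a gene is called where limma's Benjamini-Hochberg adjusted p over all 12906 tested genes was under 0.05. Whether the values are scaled to transcript length is not given in the sources used here, so they are compared between libraries and not between genes. In bulk samples, fewer cells that express a gene and less RNA per cell cannot be told apart.

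Even steps between the lowest values put the worth of 1 read at 1.07 to 1.78 in CD24Neg and 0.583 to 0.695 in CD24Mid, if 1 step is 1 read, which gives 12.5 to 20.7 M reads and 17.5 to 19.6 M reads per library. Transcripts of the mitochondrial genome took 28.3 to 37.4% of the summed values in CD24Neg and 8.03 to 9.1% in CD24Mid. The 6 epithelial markers (Epcam, Cdh1, Krt8, Krt18, Krt20 and Vil1) were all above the minimum and together made up 0.975 to 1.08% of the values outside the mitochondrial genome in CD24Neg and 0.714 to 0.873% in CD24Mid. They did not move together. Vil1 was at 41913 to 58704 in CD24Neg and 6539 to 9196 in CD24Mid, and Krt20 at 15668 to 22049 in CD24Neg and 948 to 1690 in CD24Mid. Epcam, Cdh1, Krt8 and Krt18 overlapped between the fractions. Markers of intraepithelial lymphocytes (10 of 10 above the minimum) came to 0.00374 to 0.0674% in CD24Neg and 0.00115 to 0.0032% in CD24Mid, and those of plasma and B cells (6 of 7 listed) to 0.00222 to 0.00517% in CD24Neg and 0.0544 to 0.14% in CD24Mid. Stromal and vessel markers (2 of 7 above the minimum) and Paneth cell markers (4 of 4) reached at most 0.00111% and 0.0176% in CD24Neg and 0.00175% and 0.0203% in CD24Mid. Among the defining markers, Pdgfra was at 0 in 7 of the 8 libraries, and the lymphocyte markers were highest in CD24Neg libraries 2 and 8. Cd24a, which encodes the antigen of the sort, had 350.0, 563, 287 and 456 in CD24Neg and 2246, 3693, 2558 and 2786 in CD24Mid. The part of lymphocytes, plasma cells and mitochondrial RNA in the results was not tested.

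Splicing removes introns from pre-mRNA in steps that these proteins carry in turn. SR proteins bind exonic enhancers through RNA recognition motifs and recruit the machinery with their arginine and serine rich tails, while many hnRNP proteins bind nascent RNA and silence splice sites. U2AF marks the end of the intron, and the SF3A and SF3B complexes of the U2 snRNP hold the branch point. The Sm proteins form the ring around most spliceosomal snRNAs, though not around U6. The PRP factors build and remodel the U4/U6.U5 tri-snRNP and the catalytic spliceosome. In the small intestine, stem and progenitor cells of the crypt divide and give rise to the differentiated cells of the villus. Many SR and hnRNP genes also control their own level through exons that mark a transcript for decay, which values per gene do not resolve.

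To show the start regions of the genes at either end of the comparison, the promoter windows of the 3 members called higher in CD24Neg (Srsf2, Srsf11 and U2af1l4) are set beside those of the 3 members with the largest falls that have an entry (Snrpf, Hnrnpa1 and Snrpg). The windows run from 250 bases before to 50 bases after the RefSeq transcription start on GRCm38.p6 and are printed 5′ to 3′ on the strand of the gene. Capitals mark CACGTG (the E-box), CCGGAA (here called the Ets core, a form bound by Ets factors), CCAAT (the NF-Y box), TCGCGA (a palindrome) and GGGCGG (the Sp1 box). Matches on either strand are marked, and neighbouring matches can run together. Other spellings that Ets factors may bind are not marked. The windows lie at chr11:116853045-116853344 (- strand), chr3:158036557-158036856 (- strand), chr7:30563090-30563389 (+ strand), chr10:93589609-93589908 (- strand), chr15:103240147-103240446 (+ strand) and chr6:86371290-86371589 (+ strand), in that order.
Srsf2: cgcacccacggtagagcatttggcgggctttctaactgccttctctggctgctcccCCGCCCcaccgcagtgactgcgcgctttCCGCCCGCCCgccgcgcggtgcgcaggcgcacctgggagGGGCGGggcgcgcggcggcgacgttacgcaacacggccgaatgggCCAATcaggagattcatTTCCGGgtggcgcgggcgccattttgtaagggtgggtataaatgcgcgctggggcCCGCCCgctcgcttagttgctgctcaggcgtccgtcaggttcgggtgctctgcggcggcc
Srsf11: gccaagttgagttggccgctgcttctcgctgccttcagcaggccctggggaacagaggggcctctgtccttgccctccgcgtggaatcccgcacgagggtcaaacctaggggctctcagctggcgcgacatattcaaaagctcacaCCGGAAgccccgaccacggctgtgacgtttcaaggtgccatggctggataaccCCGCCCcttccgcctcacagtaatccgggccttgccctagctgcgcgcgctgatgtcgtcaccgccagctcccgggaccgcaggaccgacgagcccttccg
U2af1l4: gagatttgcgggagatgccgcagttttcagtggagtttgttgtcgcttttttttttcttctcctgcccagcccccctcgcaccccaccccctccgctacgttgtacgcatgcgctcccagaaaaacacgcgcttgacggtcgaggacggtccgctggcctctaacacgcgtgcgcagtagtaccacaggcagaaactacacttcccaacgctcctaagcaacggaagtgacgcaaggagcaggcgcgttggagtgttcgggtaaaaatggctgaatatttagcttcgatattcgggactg
Snrpf: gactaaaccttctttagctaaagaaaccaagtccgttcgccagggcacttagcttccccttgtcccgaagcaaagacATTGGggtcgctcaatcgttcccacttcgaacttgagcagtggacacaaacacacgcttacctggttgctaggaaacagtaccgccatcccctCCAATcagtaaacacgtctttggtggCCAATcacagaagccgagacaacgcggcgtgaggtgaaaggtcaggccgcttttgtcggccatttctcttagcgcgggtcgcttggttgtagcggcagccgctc
Hnrnpa1: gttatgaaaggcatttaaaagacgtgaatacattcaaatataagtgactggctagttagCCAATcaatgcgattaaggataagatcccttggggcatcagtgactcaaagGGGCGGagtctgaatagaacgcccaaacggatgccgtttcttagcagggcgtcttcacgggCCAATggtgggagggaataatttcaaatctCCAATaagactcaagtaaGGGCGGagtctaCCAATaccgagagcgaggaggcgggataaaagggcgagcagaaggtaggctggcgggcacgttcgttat
Snrpg: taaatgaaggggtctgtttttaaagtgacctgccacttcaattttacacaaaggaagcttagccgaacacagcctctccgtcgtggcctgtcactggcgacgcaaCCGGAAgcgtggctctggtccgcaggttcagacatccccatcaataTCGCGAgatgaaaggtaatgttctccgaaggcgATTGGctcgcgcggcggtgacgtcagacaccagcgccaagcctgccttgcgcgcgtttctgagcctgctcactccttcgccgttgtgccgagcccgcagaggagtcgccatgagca

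The Srsf2 window held 5 Sp1 boxes, 1 Ets core and 1 NF-Y box, and the Srsf11 window 1 Ets core and 1 Sp1 box. No motif of the 5 was found in the window of U2af1l4, although ACGGAA, close in spelling to the Ets core as defined here, occurs there. Among the genes that fell, Hnrnpa1 had 4 NF-Y boxes and 2 Sp1 boxes, Snrpf had 3 NF-Y boxes, and Snrpg had 1 Ets core, 1 NF-Y box and 1 palindrome. RefSeq gave 75 windows for 57 of the 66 members. The Ets core was in 48% of them, against 27% of the 12381 windows of tested genes and 14.9% of all 32851 windows. The NF-Y box was in 49.3% against 37.8% and 37.4%, the E-box in 14.7% against 9.89% and 7.15%, the palindrome in 9.33% against 4.75% and 2.5%, and the Sp1 box in 66.7% against 61.4% and 35.7%. These shares describe the letters of the windows and not binding.

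Most of the 66 genes were lower in CD24Neg. Of these, 54 were called lower and 3 higher, and 9 were not called, where 34.3% of all tested genes were called lower and 34% higher. The median log2 fold change of the members was -0.84, a 1.79-fold lower level in CD24Neg, and that of all tested genes was -0.02. In 52 members every CD24Neg library was under the lowest CD24Mid library, and in 1 every CD24Neg library was over the highest, while 32.1% and 31.8% of all tested genes were separated in these directions. In 26 members the fall exceeded 2-fold (a log2 fold change below -1), which held for 20.9% of all tested genes. These falls were moderate beside the whole table, since the one of Snrpd1, the largest among the members, was exceeded by 8.09% of tested genes. Every class had a negative median: -0.71 for the SR proteins, -0.84 for the hnRNP proteins, -0.80 for SF3 and U2AF, -1.19 for the Sm and snRNP proteins and -0.53 for the PRP factors.

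The small differences depend on the scale. The deposited values put the median gene at about the same level in both fractions. Scaled instead to totals without the 20 most abundant genes, the median of all tested genes moved by -0.42 and that of the members to -1.27, with 59 members called lower and 0 higher, where 50.3% of tested genes were lower and 22% higher. With totals outside the mitochondrial genome the shift was -0.46 and the member counts were 60 lower and 0 higher, against 51.9% and 21.1% of tested genes. Quantile normalization gave 58 lower and 0 higher, against 35.6% and 31.4% of tested genes. Relative to the median of all tested genes, the members stood at -0.82 as deposited and at -1.11 after quantile normalization. They stood at -0.82 on each scale of totals, which applies a single factor per library. Such a factor shifts every gene nearly alike, so the scales of totals could hardly change this distance.

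**Figure D1:**
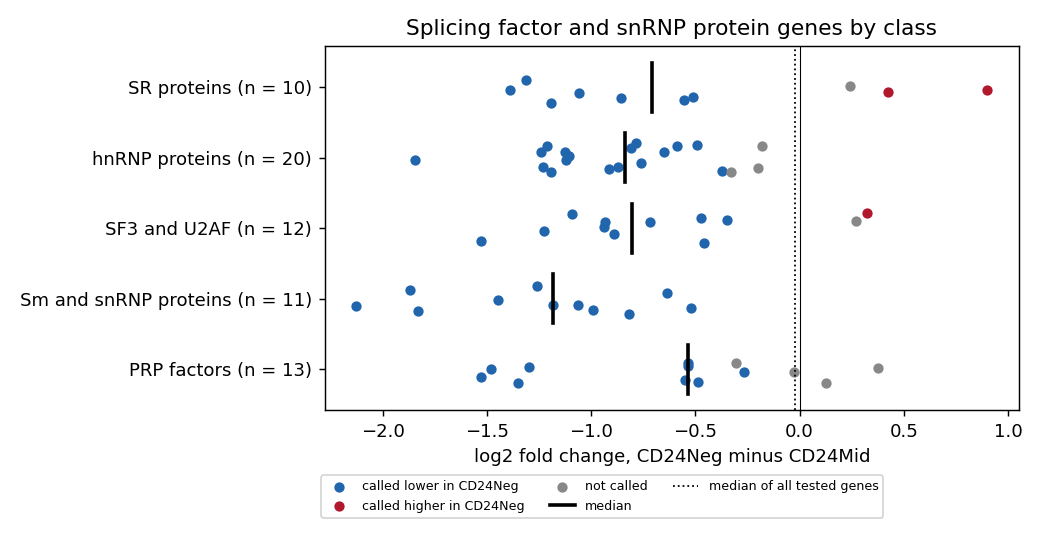
Log2 fold change of each of the 66 members, CD24Neg minus CD24Mid, by class, coloured by the call at a limma adjusted p of 0.05, with the class median as a bar and the median of all tested genes as a dotted line. Nearly all points lie left of 0, the 11 Sm and snRNP proteins without exception, and the 3 members called higher are 2 SR proteins and 1 of the SF3 and U2AF class.

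The Sm and snRNP proteins formed the class with the lowest median. All 11 were called lower in CD24Neg, and the fractions did not overlap in 10 of them. Their 7 ring proteins had a median of -1.45 and fell by unequal amounts, with log2 fold changes between -2.13 and -0.99. Snrpd1, whose product enters the ring as a pair with that of Snrpd2, had values of 189, 198, 188 and 181 in CD24Neg, against 829, 984, 758 and 758 in CD24Mid (log2 fold change -2.13, SE 0.11, adjusted p = 3.18e-07). Each CD24Neg library lay far below every CD24Mid library, a 4.37-fold difference. Snrpf, for another ring subunit, had 168, 177, 126 and 179.5 in CD24Neg, against 599, 662, 521 and 584 in CD24Mid (log2 fold change -1.87, SE 0.14, adjusted p = 1.86e-06). Snrpg, whose product joins the ring in one subcomplex with that of Snrpf, had 371, 306, 253 and 347 in CD24Neg, against 1198, 1383, 957 and 1017 in CD24Mid (log2 fold change -1.83, SE 0.15, adjusted p = 3.72e-06). In both genes the highest CD24Neg library was under the lowest CD24Mid library.

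Snrpb, the ring subunit with the largest deposited values of this class, had 988, 954, 862 and 888 in CD24Neg, against 2111, 2186, 1717 and 1750.3 in CD24Mid (log2 fold change -1.07, SE 0.11, adjusted p = 1.31e-05). The other ring genes were Snrpd2 at 495 ± 117 in CD24Neg and 1337 ± 228 in CD24Mid (-1.45 on the log2 scale), Snrpe at 434 ± 44.5 in CD24Neg and 1045 ± 170.1 in CD24Mid (-1.26) and Snrpd3 at 489 ± 32.5 in CD24Neg and 977 ± 137 in CD24Mid (-0.99), all without overlap. Snrpd1 and Snrpd3 can be set against each other within a library, where any factor per library cancels. Their ratio was 0.352, 0.423, 0.394 and 0.381 in CD24Neg, against 0.78, 0.876, 0.866 and 0.894 in CD24Mid. The CD24Neg ratios averaged 0.388 ± 0.0296 and the CD24Mid ratios 0.854 ± 0.0508, with no overlap. Exons of Snrpd3 share 232 bases with Gucd1 on the opposite strand, which had 3207, 2841, 3247 and 2604 in CD24Neg and 1824, 1643, 1385 and 1331 in CD24Mid, and its part in the Snrpd3 values was not tested. This pair and the others given as ratios were chosen after the values were seen, so no test is attached. Proteins particular to the U1 and U2 particles fell too: Snrpa1 by 1.19, Snrpa by 0.82, Snrpb2 by 0.64 and Snrpc by 0.52 on the log2 scale. Snrpc, for a U1 protein at the splice donor site, was the class member whose fractions overlapped, with 437, 329, 346 and 337 in CD24Neg and 571, 593, 436 and 484 in CD24Mid (log2 fold change -0.52, adjusted p = 0.0063).

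**Figure D2:**
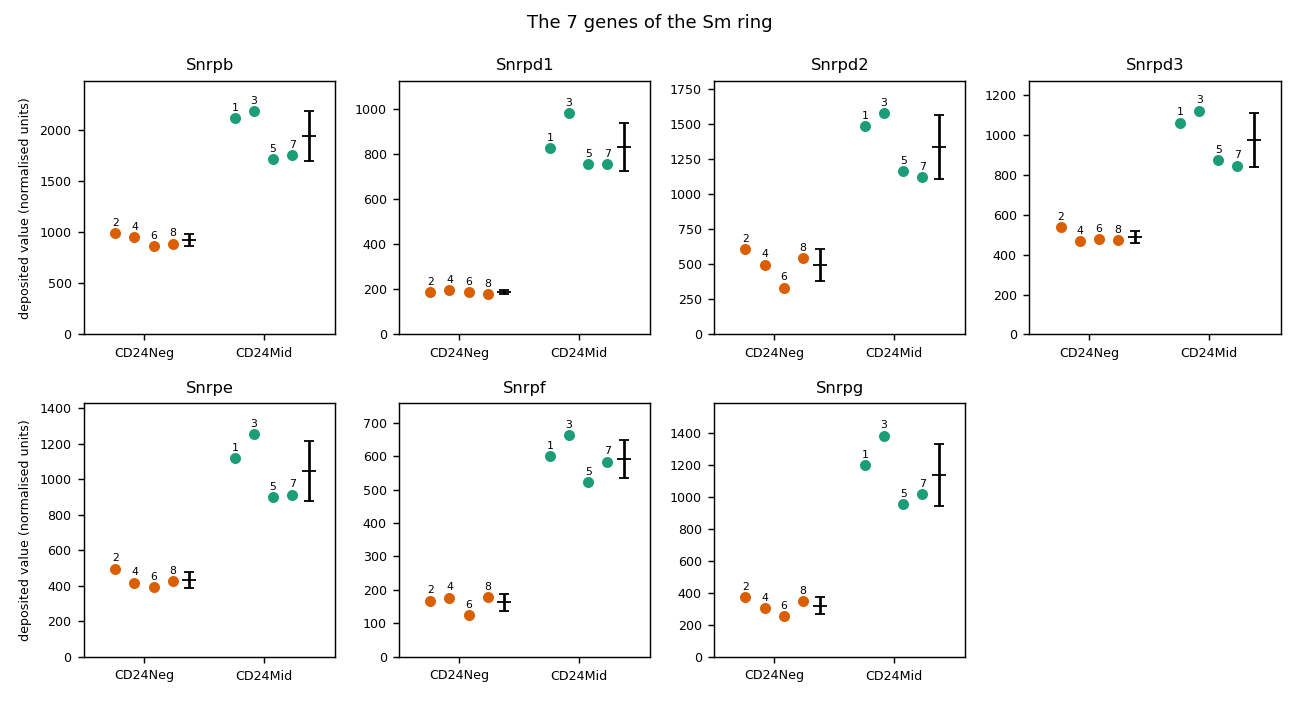
Deposited values of the 7 Sm ring genes in each library (points, numbered by title number), CD24Neg left and CD24Mid right of each panel, with mean ± SD of the 4 libraries as a bar beside them. In every panel the CD24Neg points lie below the CD24Mid points, and the gap is widest in proportion for Snrpd1.

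Among the SR proteins 7 of 10 were called lower and 2 higher. The largest fall was that of Srsf7, which also takes part in mRNA export, at 645, 769, 839 and 794 in CD24Neg, against 1819, 1998, 2306 and 1853 in CD24Mid (log2 fold change -1.39, SE 0.12, adjusted p = 3.46e-06). Srsf1, an enhancer-binding SR protein known as a proto-oncogene product, had 1713, 1945, 1998 and 2105 in CD24Neg, against 4021, 4919, 5225 and 5145 in CD24Mid (log2 fold change -1.31, SE 0.12, adjusted p = 4.89e-06). Srsf10, which represses splicing once it is dephosphorylated, had 508, 684, 701 and 750.5 in CD24Neg, against 1176, 1387, 1764 and 1740.4 in CD24Mid (log2 fold change -1.19, SE 0.16, adjusted p = 0.000106). No CD24Neg library reached a CD24Mid library in these 3 genes. Srsf3, Srsf6, Srsf4 and Srsf9 fell by 1.06, 0.86, 0.56 and 0.51 on the log2 scale, also without overlap.

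Srsf2, a nuclear speckle protein and general enhancer-binding factor, went the other way. Its values were 1130.1, 1314, 2637 and 3501 in CD24Neg, against 1222, 936, 958 and 1026 in CD24Mid (log2 fold change 0.90, SE 0.32, adjusted p = 0.0294). CD24Neg libraries 6 and 8 stood above every CD24Mid library, whereas library 2 lay within the CD24Mid range and library 4 just above it. The mean was 2146 ± 1126 in CD24Neg and 1035 ± 130.1 in CD24Mid, and the CD24Neg spread was the wider one. Within title numbers 1 to 4 the log2 fold change was 0.18 (adjusted p = 0.417), and within 5 to 8 it was 1.61 (adjusted p = 0.00129), each with 2 libraries per fraction. The call ended without CD24Neg library 6 (adjusted p = 0.0776) or 8 (0.0639), and without CD24Mid library 3 (0.0684), 5 (0.0649) or 7 (0.0552). It also ended with no filter on low values (0.108) and in limma without trend or robust variance (0.0504). On the scale of totals without the 20 most abundant genes the log2 fold change was 0.47 (adjusted p = 0.204). With quantile normalization it was 0.56 (adjusted p = 0.125). Exons of Srsf2 share 288 bases with Mfsd11 and 460 with Mettl23, both on the opposite strand, and the sources used here do not say whether counting used strand. Mfsd11 had 905, 966, 977 and 962 in CD24Neg and 329, 309, 305 and 304 in CD24Mid, nearly level within each fraction, and Mettl23 251, 209, 233 and 175 in CD24Neg and 338, 360.4, 289.7 and 267 in CD24Mid. The part of reads from these neighbours in the Srsf2 values was not tested. In all, 15 members have exons that overlap those of another protein-coding gene, 12 of them on the opposite strand, and their values are uncertain to that extent.

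Srsf11, an SR-related protein that binds U2AF, had 2399, 2772, 3215 and 3552 in CD24Neg, against 2101, 1909, 2488 and 2334 in CD24Mid (log2 fold change 0.43, SE 0.14, adjusted p = 0.0203). CD24Neg library 2 lay between CD24Mid libraries 7 and 5, and the other CD24Neg libraries lay above all of CD24Mid. On the scale of totals without the 20 most abundant genes its log2 fold change turned to -0.0014, so its higher level is one relative to the median gene. The call also ended without CD24Neg library 8 (adjusted p = 0.0523) or CD24Mid library 3 (0.0656), and with no filter on low values (0.0519). Srsf5, the SR gene with the largest deposited values and one known to be induced early in regenerating rat liver, had 5594, 5994, 6306 and 6971 in CD24Neg, against 5465, 4814, 5105 and 5596 in CD24Mid and was not called (log2 fold change 0.24, SE 0.11, adjusted p = 0.0648). CD24Neg library 2 lay just under CD24Mid library 7, and the remaining CD24Neg libraries were above the CD24Mid range. Without CD24Neg library 2 it was called higher (adjusted p = 0.0359), as it was in a fit with a block for adjacent title numbers (0.0479), and on the scale of totals its sign turned (-0.18, adjusted p = 0.154).

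SR genes can also be set against each other within a library. The ratio of Srsf2 to Srsf1 was 0.66, 0.676, 1.32 and 1.66 in CD24Neg, against 0.304, 0.19, 0.183 and 0.199 in CD24Mid. The ratio of Srsf11 to Srsf7 was 3.72, 3.6, 3.83 and 4.47 in CD24Neg, against 1.15, 0.955, 1.08 and 1.26 in CD24Mid. Both ratios were higher in every CD24Neg library than in any CD24Mid library, the first at 1.08 ± 0.496 in CD24Neg and 0.219 ± 0.0568 in CD24Mid and the second at 3.91 ± 0.39 in CD24Neg and 1.11 ± 0.128 in CD24Mid.

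**Figure D3:**
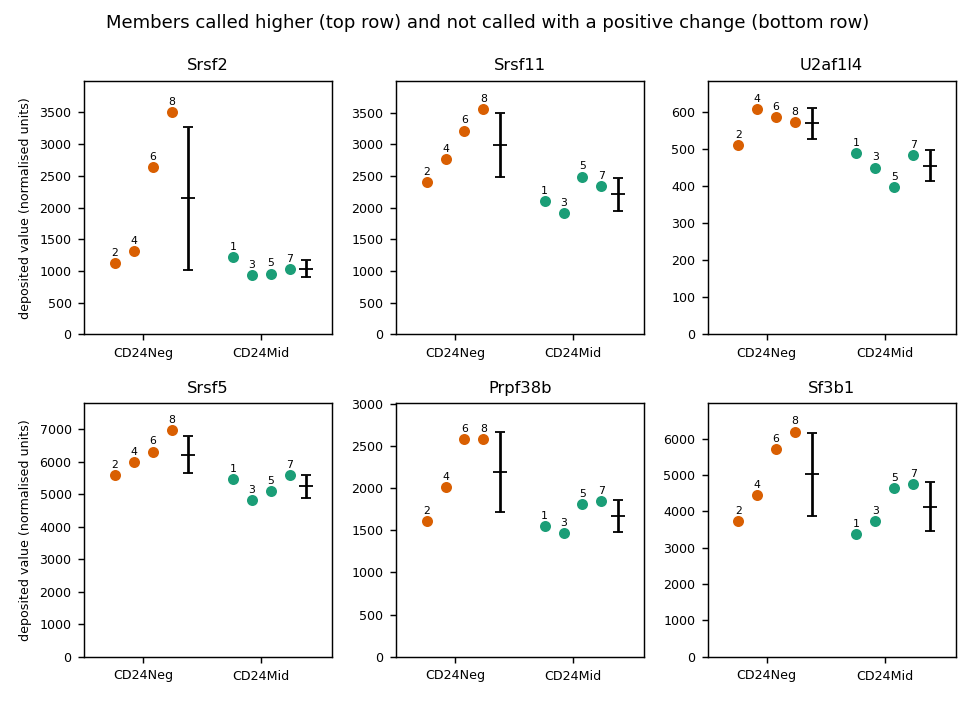
Deposited values per library (points, numbered by title number) of the 3 members called higher in CD24Neg and of 3 members with a positive change that was not called, CD24Neg left and CD24Mid right, with mean ± SD of 4 libraries. Only the panel of U2af1l4 has no overlap between the fractions, and in Srsf2 the CD24Neg libraries 2 and 4 stand near the CD24Mid points.

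The hnRNP proteins were lower in 17 of 20 cases and higher in none, and the fractions did not overlap in 16 of those 17. Hnrnpa1, a classical silencer of splice sites, fell the most, with 1314, 1252, 1137 and 1634 in CD24Neg, against 4229.6, 4819.7, 4993 and 5051 in CD24Mid (log2 fold change -1.85, SE 0.12, adjusted p = 1.01e-06). Hnrnpa0, which binds AU-rich elements, had 1736, 1588, 1415 and 1598 in CD24Neg, against 3911, 3631, 3706 and 3704 in CD24Mid (log2 fold change -1.24, SE 0.09, adjusted p = 1.69e-06). Hnrnpu, a nuclear scaffold protein, had 3218, 3744, 4158 and 4125 in CD24Neg, against 7309, 8407, 10395 and 9889.6 in CD24Mid (log2 fold change -1.23, SE 0.14, adjusted p = 2.9e-05). The CD24Neg values of these genes lay below every CD24Mid value, with fold differences of 3.60, 2.36 and 2.35. Hnrnpa2b1, the gene of the class with the largest deposited values, had 6395, 6967, 7578 and 8363 in CD24Neg, against 14445, 15328, 16564 and 17211 in CD24Mid (log2 fold change -1.12, SE 0.12, adjusted p = 1.86e-05). Its product is a nuclear RNA-binding protein closely related to that of Hnrnpa1.

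Further members of the class fell by 1.21 (Hnrnpr), 1.19 (Hnrnpab), 1.13 (Hnrnpa3) and 1.11 (Hnrnpd) on the log2 scale, and the smallest called fall was that of Hnrnph3, where they overlapped (-0.37, adjusted p = 0.0391). Hnrnpk and Hnrnpl, whose products bind C-rich and CA-rich RNA, lay at -0.59 and -0.49, and Hnrnpc, which binds uridine tracts, at -0.76. The 3 that were not called had small negative changes. Hnrnph2, an X-linked paralog of Hnrnph1 that binds G-rich RNA, had 628, 737, 886 and 752 in CD24Neg and 764, 937, 1035 and 1032 in CD24Mid (log2 fold change -0.33, SE 0.13, adjusted p = 0.0525), and was called lower with the block for adjacent title numbers (adjusted p = 0.00603). Hnrnpll, known in T cells for its part in splicing of the CD45 transcript, had 840.4, 804, 808 and 743 in CD24Neg and 874, 858, 999 and 946 in CD24Mid (log2 fold change -0.20, SE 0.09, adjusted p = 0.068). Hnrnpul2, a relative of Hnrnpu, had 3818, 3997, 4583 and 4225 in CD24Neg and 4356, 4658, 4922 and 4886 in CD24Mid (log2 fold change -0.18, SE 0.10, adjusted p = 0.127). All 3 were called lower on both scales of totals, where for Hnrnpul2 the log2 fold change was -0.61 without the 20 most abundant genes. Hnrnpa1 and several other members have processed copies in the genome, and how the deposited values split reads among near-identical sequences is not given in the sources used here.

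Of the 12 genes for SF3A, SF3B and U2AF subunits 10 were called lower and 1 higher. Sf3b3, the propeller-shaped scaffold of SF3B, had 1092, 1024, 946 and 1001 in CD24Neg, against 2701, 3189, 2839.9 and 2997 in CD24Mid (log2 fold change -1.53, SE 0.09, adjusted p = 5.52e-07). Sf3a3, a subunit of SF3A, had 299, 358, 394 and 365 in CD24Neg, against 817, 853, 828 and 805 in CD24Mid (log2 fold change -1.23, SE 0.10, adjusted p = 3.74e-06). U2af1, which reads the AG dinucleotide at the end of the intron, had 659, 517, 531 and 592 in CD24Neg, against 1288, 1391, 1119.8 and 1104 in CD24Mid (log2 fold change -1.09, SE 0.12, adjusted p = 1.75e-05). These 3 genes were separated between the fractions without overlap, at 2.88-fold, 2.34-fold and 2.13-fold lower in CD24Neg. U2af2, for the larger subunit that binds the polypyrimidine tract, fell by 0.46 and Sf3b2 by 0.47 on the log2 scale. The smallest called fall was that of Sf3b6, which contacts the branch point (-0.35, adjusted p = 0.0214).

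Sf3b1, the subunit that clasps the branch helix and the gene of the class with the largest deposited values, did not fall with its partners. It had 3722, 4442, 5711 and 6193 in CD24Neg, against 3368, 3742, 4641 and 4746 in CD24Mid and was not called (log2 fold change 0.27, SE 0.18, adjusted p = 0.21). The fractions overlapped: CD24Neg library 2 lay below CD24Mid libraries 3, 5 and 7, and libraries 6 and 8 lay above all of them. With the block for adjacent title numbers it was called higher (adjusted p = 0.0236), without CD24Neg library 2 as well (0.0481), and on the scale of totals without the 20 most abundant genes its sign turned (-0.16). The ratio of Sf3b1 to Sf3b3, which a factor per library does not alter, was 3.41, 4.34, 6.04 and 6.19 in CD24Neg, against 1.25, 1.17, 1.63 and 1.58 in CD24Mid. It was higher in every CD24Neg library, with means of 4.99 ± 1.35 in CD24Neg and 1.41 ± 0.233 in CD24Mid. Exons of Sf3b3 share 188 bases with Cog4 on the opposite strand. Cog4 had 1439, 1312, 1394 and 1334 in CD24Neg and 916, 908, 784 and 796 in CD24Mid, and its part in the Sf3b3 values was not tested.

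U2af1l4, a paralog of U2af1 that can stand in for it in mouse cells, was called higher. Its values were 509.9, 606, 586 and 572 in CD24Neg, against 489, 449, 397 and 482 in CD24Mid (log2 fold change 0.32, SE 0.10, adjusted p = 0.0184). It was the member whose CD24Neg libraries all lay above all CD24Mid libraries, although CD24Neg library 2 exceeded CD24Mid library 1 by little. On the scale of totals without the 20 most abundant genes the sign turned (-0.10, adjusted p = 0.371). The call ended without CD24Neg library 4 (adjusted p = 0.0538) or CD24Mid library 5 (0.0643), and with quantile normalization (0.0507). The ratio of U2af1l4 to U2af1 was 0.774, 1.17, 1.1 and 0.966 in CD24Neg, against 0.38, 0.323, 0.354 and 0.437 in CD24Mid, with no overlap. Exons of U2af1l4 share 119 bases with Psenen on the opposite strand and 1086 with the gene model Gm49396 on the same strand. Psenen had 1004, 987, 1034 and 845 in CD24Neg and 853, 819, 630.2 and 644 in CD24Mid, and its part in the values was not tested.

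**Figure D4:**
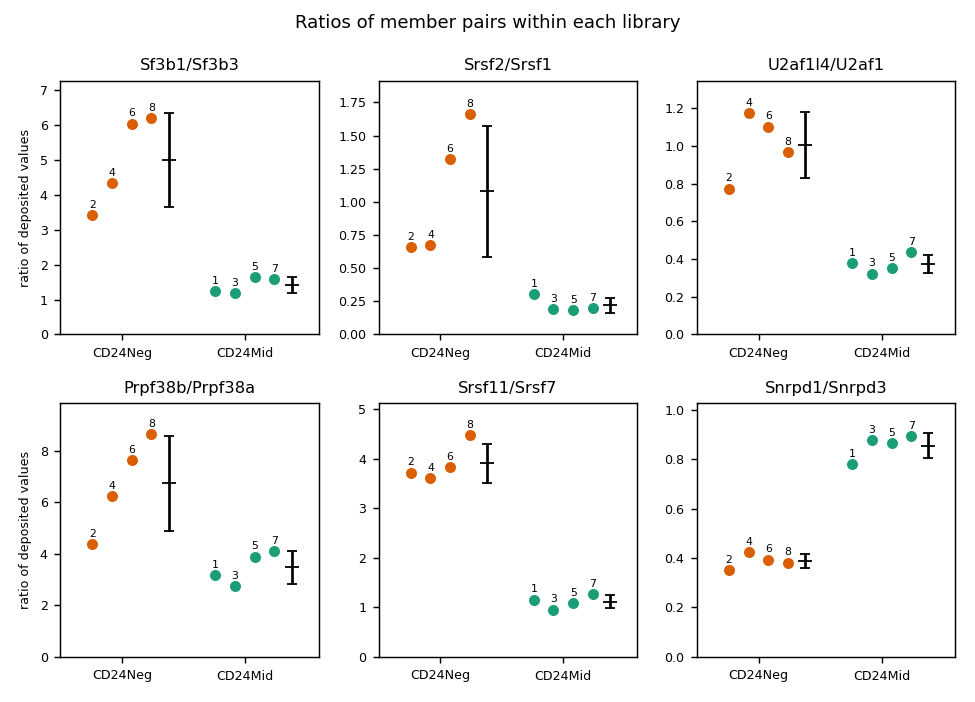
Ratio of the deposited values of 6 pairs of members within each library (points, numbered by title number), CD24Neg left and CD24Mid right, with mean ± SD of 4 libraries. The ratio is higher in every CD24Neg library for 5 pairs and lower in every CD24Neg library for Snrpd1 to Snrpd3.

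Of the PRP factors 9 of 13 were called lower, 0 higher and 4 not called. For this class the count at an unadjusted p under 0.05 was 9 lower and 1 higher (Prpf38b) in limma. The share of all tested genes at that unadjusted threshold is not given here, so these counts have no background beside them. Prpf31, which binds the U4 snRNA in the tri-snRNP and is mutated in retinitis pigmentosa, had 271, 268, 223 and 276 in CD24Neg, against 737, 888, 659.7 and 727 in CD24Mid (log2 fold change -1.53, SE 0.12, adjusted p = 2.55e-06). Prpf19, the ubiquitin ligase that names the PRP19 complex, had 1024, 957, 782 and 924 in CD24Neg, against 2364, 2685, 2165 and 2188 in CD24Mid (log2 fold change -1.35, SE 0.11, adjusted p = 3.69e-06). Prpf40b, a U1-associated factor, had 59.2, 91.5, 120.1 and 28.7 in CD24Neg, against 185, 173, 206 and 176 in CD24Mid (log2 fold change -1.48, SE 0.37, adjusted p = 0.00515). The fractions were apart in each of these genes. Prpf40b had the lowest values of all members, and its CD24Neg libraries ranged over 28.7 to 120.1. Prpf8, the core protein of the catalytic center, had 3218, 3365, 3496 and 3128 in CD24Neg, against 4518, 4326, 4965 and 5376 in CD24Mid (log2 fold change -0.53, SE 0.10, adjusted p = 0.000929). Prpf4 and Prpf3, partners in the U4/U6 particle, fell by 1.30 and 0.49 on the log2 scale.

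The 4 PRP genes that were not called lay between -0.30 and 0.38. Prpf38b, a relative of the activation factor Prpf38a, had 1609, 2011, 2579 and 2580.4 in CD24Neg and 1547, 1464, 1813 and 1844 in CD24Mid (log2 fold change 0.38, SE 0.16, adjusted p = 0.0606). It was called higher without CD24Neg library 2 (adjusted p = 0.00605), within title numbers 5 to 8 (0.0101) and with the block (0.00908), and on the scale of totals without the 20 most abundant genes its log2 fold change was -0.051. The ratio of Prpf38b to Prpf38a was 4.38, 6.25, 7.64 and 8.65 in CD24Neg, against 3.17, 2.73, 3.89 and 4.1 in CD24Mid, without overlap. Prpf6, which bridges the parts of the tri-snRNP, had 773, 849.6, 1009 and 885 in CD24Neg and 813, 815, 787 and 795 in CD24Mid (log2 fold change 0.12, SE 0.10, adjusted p = 0.277), and turned to a called fall on the scale of totals (-0.30, adjusted p = 0.0097). Prpf39, named for a U1 protein of yeast, had 324, 448, 547 and 530.3 in CD24Neg and 403, 377, 568 and 527 in CD24Mid (log2 fold change -0.03, SE 0.19, adjusted p = 0.905). Exons of Prpf39 share 599 bases with Fkbp3 on the opposite strand. Fkbp3 had 205, 225, 180 and 274 in CD24Neg and 594, 690, 581 and 616 in CD24Mid, and its part in the Prpf39 values was not tested. Prpf4b, a kinase of the spliceosome, had 765, 1049, 1301 and 1189.8 in CD24Neg and 969, 1009, 1711 and 1725 in CD24Mid (log2 fold change -0.30, SE 0.23, adjusted p = 0.271). It was called lower with the block (adjusted p = 0.0318), within title numbers 5 to 8 (0.0157) and on the scale of totals without the 20 most abundant genes (0.0185). In Prpf39 and Prpf4b the libraries with title numbers 5 to 8 were above those with numbers 1 to 4 in both fractions.

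Differences by title number were seen in many members, though in both directions. Both CD24Neg libraries 6 and 8 exceeded both 2 and 4 in 26 of 66 members (39.4%, against 18.5% of 11895 tested protein-coding genes) and were below both in 12 (18.2% against 17.8%). CD24Mid libraries 5 and 7 exceeded both 1 and 3 in 22 members (33.3% against 24.7%) and were below both in 27 (40.9% against 34.6%). The Sm and snRNP proteins had medians of -0.15 in CD24Neg and -0.34 in CD24Mid for the later against the earlier numbers on the log2 scale, and the PRP factors 0.06 and 0.22. Across the 66 members the fractions' differences ran together (Spearman rho 0.77), and each went with the length of the transcript (rho 0.40 in CD24Neg and 0.61 in CD24Mid). These correlations are across genes that share libraries, and over the tested protein-coding genes they were 0.49, 0.27 and 0.55. The labels name no batch, and what sets the libraries apart was not tested. The fold change between the fractions had a rho of 0.14 with transcript length over the members. Within title numbers 1 to 4 alone 51 members were lower and 0 higher, against 26% and 26.3% of tested genes. Within 5 to 8 alone 53 were lower and 3 higher, against 30.5% and 30.3%, with 2 libraries per fraction each time.

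Further genes of the machinery were described by lists, which like the members were chosen with earlier results of these data known. Of 124 such genes in 6 lists, 77 (62.1%) were called lower and 18 (14.5%) higher, against 34.3% and 34% of all tested genes. The same background shares apply to the counts of each list below. The median of the 124 genes was -0.54 on the log2 scale. Among genes of snRNP assembly, 12 of 14 were called lower and 1 higher, with a median of -1.11. Prmt5, the methyltransferase that prepares Sm proteins for the ring, had 289.7, 302, 212 and 251 in CD24Neg, against 1114, 1293, 1099 and 1071 in CD24Mid (log2 fold change -2.12, adjusted p = 5.78e-07). Gemin5, which recognises the snRNA in the SMN complex, had 191, 225, 167 and 211 in CD24Neg, against 630.1, 693, 740.4 and 721 in CD24Mid (log2 fold change -1.81, adjusted p = 8.63e-07). Both stood clear of overlap, as did the 7 Sm ring genes. Gemin7, a small SMN subunit, was the 1 called higher, at 425, 406, 376 and 312 in CD24Neg, against 249, 249, 214 and 191 in CD24Mid (log2 fold change 0.75, adjusted p = 0.000793), and lost that call on the scale of totals (log2 fold change 0.32, adjusted p = 0.0502).

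Among the snRNP proteins with other symbols, 20 of 29 were called lower and 2 higher (median -0.48). Lsm6, of the ring on U6 snRNA, had 209.5, 210.1, 185 and 204 in CD24Neg, against 598, 624, 487 and 539.5 in CD24Mid (log2 fold change -1.47, adjusted p = 2.04e-06). Snu13, which binds U4 snRNA, had 533, 512, 424 and 433 in CD24Neg, against 1330.4, 1509, 1254 and 1200.1 in CD24Mid (log2 fold change -1.48, adjusted p = 2.19e-06). Neither gene overlapped between the fractions. The 2 called higher were Sart1, a tri-snRNP protein, at 1829 ± 66.6 in CD24Neg and 1289.6 ± 85.7 in CD24Mid (log2 fold change 0.51, adjusted p = 0.000425), and Zmat5, of the minor spliceosome, at 199 ± 17 in CD24Neg and 148 ± 34.9 in CD24Mid (log2 fold change 0.46, adjusted p = 0.0401). Neither held on the scale of totals without the 20 most abundant genes. In the list of the PRP19 complex, step factors and helicases, 13 of 25 were called lower and 6 higher (median -0.38). Isy1, a component of the catalytic spliceosome, and Sart3, which recycles U4/U6, were 2.16-fold and 1.93-fold lower. Syf2, also of the PRP19-associated group, was higher at 892 ± 74.1 in CD24Neg and 517 ± 65 in CD24Mid (log2 fold change 0.79, adjusted p = 0.000136), and so was Slu7, a factor of the second step, at 720.5 ± 96.2 in CD24Neg and 474 ± 30.9 in CD24Mid (log2 fold change 0.60, adjusted p = 0.000922). On the scale of totals Syf2 stayed called (log2 fold change 0.36, adjusted p = 0.013) and Slu7 did not (0.17, adjusted p = 0.181). Of the exon junction complex, 5 of 6 were called lower and 0 higher, with Magoh at 327 ± 37.5 in CD24Neg and 613 ± 72.6 in CD24Mid (log2 fold change -0.90, adjusted p = 8.15e-05) and its partner Rbm8a at 519.6 ± 33.7 in CD24Neg and 832 ± 24.1 in CD24Mid (log2 fold change -0.68, adjusted p = 5.62e-05).

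Of the other splicing regulators, 26 of 43 were called lower and 5 higher (median -0.53). Esrp1, an epithelial splicing regulator, had 1149.5, 1173, 1004 and 1176 in CD24Neg, against 2431, 2809.8, 2632 and 2751 in CD24Mid (log2 fold change -1.24, adjusted p = 1.92e-06). Nono, a paraspeckle protein, had 2067, 2068, 2104 and 1985 in CD24Neg, against 4833, 5461, 4575 and 4684 in CD24Mid (log2 fold change -1.25, adjusted p = 1.63e-06). These fell without overlap. Rbm5, which controls splicing of apoptosis genes, was higher at 2111, 1898, 2199 and 2737 in CD24Neg, against 1066, 1079, 1022 and 1022 in CD24Mid (log2 fold change 1.08, adjusted p = 1.83e-05). Rbm47, an RNA-binding protein of the intestine that acts with the Apob editing enzyme, was higher at 3281, 3609, 3666 and 3115 in CD24Neg, against 1981, 1974, 2147 and 2022 in CD24Mid (log2 fold change 0.75, adjusted p = 4.69e-05). Both remained called higher on the scale of totals without the 20 most abundant genes, at 0.65 and 0.32.

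The kinases that phosphorylate SR proteins were the list with a positive median (0.28). Of the 7, 1 was called lower and 4 higher, against 34.3% and 34% of tested genes. Clk3 had 984, 1089, 1047 and 1223 in CD24Neg, against 729, 591, 516 and 537 in CD24Mid (log2 fold change 0.88, adjusted p = 0.000137). Clk1 had 2312, 2719, 3059 and 3470.1 in CD24Neg, against 1641, 1505, 1798 and 1893 in CD24Mid (log2 fold change 0.75, adjusted p = 0.000708). These nuclear kinases release SR proteins from speckles, and each was higher in every CD24Neg library than in any CD24Mid library. Clk4 lay at 0.41 and Dyrk1a at 0.28, and both were called. Srpk2, a kinase that acts on SR proteins in the cytoplasm, was lower at 79.6, 121, 83.6 and 202 in CD24Neg, against 217, 270.5, 359.6 and 361 in CD24Mid (log2 fold change -1.38, adjusted p = 0.00199). With totals without the 20 most abundant genes, 1 kinase was higher (Clk3, 0.45) and 3 were lower, against 22% and 50.3% of tested genes. Clk1 was at 0.32 there (adjusted p = 0.0646). Clk4 and Dyrk1a changed sign on that scale, to -0.018 and -0.15. Dyrk1a was the middle of the 7 there, so the list median turned negative too (-0.15). The list median was -0.18 with totals outside the mitochondrial genome and -0.025 with quantile normalization.

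**Figure D5:**
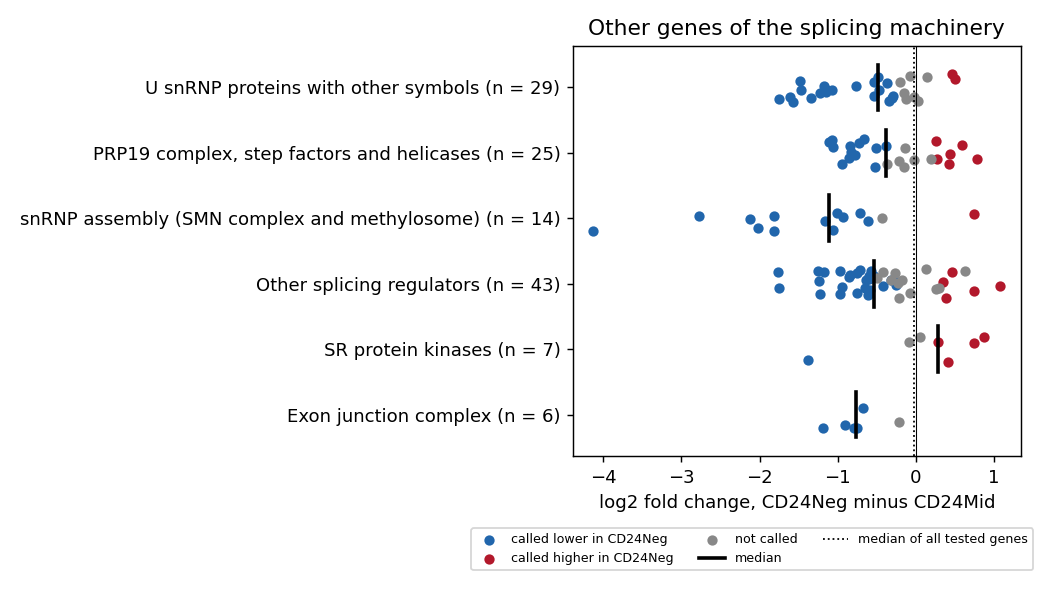
Log2 fold change, CD24Neg minus CD24Mid, of 124 further genes of the splicing machinery in 6 lists, coloured by the call at a limma adjusted p of 0.05, with the list median as a bar and the median of all tested genes as a dotted line. The median is right of 0 for the 7 SR protein kinases and left of 0 for the other 5 lists.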

How the data were processed

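The authors deposited 1 table per library with a normalised expression signal for each of 23318 Ensembl genes. Bowtie 0.12.8 and NCBIM37 are the aligner and build in the submitters' processing notes. How the authors estimated and scaled the signal, and from which annotation, is not given. The labels' protocols name total RNA and the TruSeq RNA kit. The values are not whole reads, so no count model was used.

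Symbols came by Ensembl identifier from GENCODE M21 (21223 of 23318 matched), which also gave principal transcript lengths and exon overlaps on GRCm38. Promoter windows are RefSeq's, on GRCm38.p6. Values were centred on the median ratio, kept at 10 or more in at least 4 libraries, and fitted as log2(value + 0.5) with limma 3.58.1 under R 4.3.3 (lmFit, eBayes with trend and robust variance, 6 residual degrees of freedom), adjusted by Benjamini-Hochberg over 12906 genes. The fit was tested on simulated data. P-values set the difference between the fractions against the spread of libraries within a fraction, with the libraries taken as unpaired.

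Members, lists and classes were chosen with earlier results of these data known. Named members are those called higher, those not called, the 3 largest called falls and the largest value of each class (30 in all). The rest are given by counts, and any other named gene was chosen after its values were seen. Of each further list the 2 calls with the smallest p in each direction are named.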

Additional observations from a re-analysis of the deposited data

Results flagged for a closer look

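A single library stood apart from the other 3 of its fraction in 4 of 100 cases tested (50 named genes in 2 fractions, Dixon's test at the 95% level), where chance flags about 1 in 20. Prpf31 was at 223 in CD24Neg library 6, below 268 to 276 in the other CD24Neg libraries. Esrp1 was at 1004 in the same library, below 1149.5 to 1176 in the others. Magoh was at 383 in CD24Neg library 2, above the others, and at 722 in CD24Mid library 3, above the others. All 3 genes were still called lower in CD24Neg when any 1 of the 8 libraries was left out.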

How the results depend on the processing

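The count of members called lower was 54 and ran from 51 to 54 when a library was left out, against 32.1 to 33.5% of tested genes. Against a fold change of 1.5 it was 33, where 18.8% of tested genes were lower and 18.3% higher. By class these were 5 SR, 11 hnRNP, 6 SF3 and U2AF, 8 Sm and snRNP and 3 PRP genes, and in the further lists 9 other snRNP, 7 PRP19 and helicase, 9 assembly, 10 regulator, 1 kinase and 2 exon junction genes. The median of the members was -1.18 with quantile normalization, -1.27 with totals without the 20 most abundant genes and -1.30 with totals outside the mitochondrial genome. The count called higher, 3 as reported, was 0 under these 3 scalings, against a fold change of 1.5 and within title numbers 1 to 4. With a library left out it was 1 to 6, where 31.6 to 34% of tested genes were higher. It was 6 without CD24Neg library 2, and 1 without CD24Neg library 8, CD24Mid library 3 or CD24Mid library 5. With a term for title numbers 1 to 4 against 5 to 8 it was 6, where 36% of tested genes were higher. Under the replicate block on adjacent title numbers 6 members were higher and 56 lower, against 36.7% and 37% of tested genes. The block, the term and the fits by title number were chosen after seeing the data. The labels do not state a pairing, and deviations of adjacent libraries from their fraction means correlated at 0.28 to 0.33, against -0.26 to 0.03 for other pairs.

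Among the named members, log2 fold changes changed sign under quantile normalization in Srsf5 (-0.26), Srsf11 (-0.046), Sf3b1 (-0.25), Prpf6 (-0.099) and Prpf38b (-0.046). They did so with totals without the 20 most abundant genes in Srsf5 (-0.18), Srsf11 (-0.0014), Sf3b1 (-0.16), U2af1l4 (-0.10), Prpf6 (-0.30) and Prpf38b (-0.051). With totals outside the mitochondrial genome they were -0.22, -0.039, -0.20, -0.14, -0.34 and -0.088 in the same genes. Of the further genes named by the rule, Zmat5 changed sign (-0.0037, outside the mitochondrial genome). Prpf6 was at -0.013 within title numbers 1 to 4, and Prpf39 lay between -0.13 and 0.15 with a library left out. The adjusted p of Srsf2 ranged from 0.00129 to 0.417 over 21 alternatives, that of Srsf11 from 0.0016 to 1 and that of U2af1l4 from 0.0104 to 1.

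Calls of higher genes in the further lists depended on scale. With quantile normalization, totals without the 20 most abundant genes, totals outside the mitochondrial genome and the test against 1.5-fold, in this order, they were 1, 0, 0 and 0 for other snRNP proteins (1 to 2 with a library left out, 1 with no filter and 1 within title numbers 1 to 4), 2, 1, 1 and 0 for the PRP19 and helicase list (3 within title numbers 1 to 4), 1, 0, 0 and 0 for snRNP assembly, 3, 2, 2 and 1 for other regulators, and 1, 1, 1 and 0 for the kinases (2 within title numbers 1 to 4). Over all tested genes the shares called higher under these 4 settings were 31.4%, 22%, 21.1% and 18.3%, in the same order. They were 19.6% with no filter, 26.3% within title numbers 1 to 4 and 31.6 to 34% with a library left out. Kinases called lower were 2, 3 and 3 under the 3 scalings, against 35.6%, 50.3% and 51.9% of tested genes. The 2 scalings to totals shift every gene alike, and for the other changes the cause was not tested.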
